A study of Mus musculus with 12 samples.

Results

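Cycling Kupffer cells of the neonatal mouse liver are described here in pups with phlebotomy-induced anemia (PIA) and in control pups. The cells were chosen by their own UMI counts, a UMI being the tag that lets each captured mRNA molecule be counted once. A cell was a member when it held at least 3 UMIs of the complement genes C1qa, C1qb and C1qc together, at least 1 UMI of the Kupffer cell genes Clec4f and Vsig4, and at least 2 UMIs of the proliferation genes Top2a and Mki67. It also had to hold 0 UMIs of the endothelial genes Stab2 and Clec4g and 0 UMIs of the lymphocyte genes Cd79a, Cd3e and Igll1, and under 10% adult globin UMIs. Of 202557 kept cells, 525 were members, 240 in the controls and 285 in the anemic pups. They were 525 of the 10492 cells that met the same rule without its Top2a and Mki67 condition, which are called Kupffer cells below. Of these, 9140 held 0 UMIs of both genes and are called resting, and 827 held 1 UMI and belong to neither state.

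All 12 pups were C57BL6/J, no transgene or drug was used, and 1 library of dissociated whole liver was made per pup, so the mouse was the replicate. The 6 anemic pups lost 20 µL of blood per g body weight in each of 5 phlebotomies from P2 to P10, and livers were taken at P11. Pups were assigned to the groups at random, and the 6 controls received a daily needle stick without blood loss. The labels give every library the same batch date, and they name another version of the 10x Genomics kit than the methods do.

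Kupffer cells are the resident macrophages of the liver sinusoids. They take up aged erythrocytes, recycle heme iron, clear microbes and keep their number largely by dividing in place, with colony-stimulating factor 1 as a main growth signal. Cells that enter S phase switch on replication genes, and those in G2 and M switch on genes of the spindle and of chromosome segregation. Low oxygen stabilizes hypoxia-inducible factors, which bind short DNA motifs and raise genes of glycolysis, lactate export and mitochondrial turnover.

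3 promoters are printed because their genes carry the results below. Slc16a3 and Bnip3 were the genes of the hypoxia and glycolysis list that passed the test in cycling Kupffer cells, and Ccnb2 is a G2 and M gene that the choice of cells did not use. The sequences are from RefSeq (GRCm38.p6) and run 5′ to 3′ on the gene's own strand, from 250 bases before the transcription start to 50 bases after it. Capitals mark ACGTG, the core letters bound by hypoxia-inducible factors, in Slc16a3 (chr11:120948817-120949116, plus strand) and Bnip3 (chr7:138909457-138909756, minus strand). In Ccnb2 they mark CCAAT, the box bound by nuclear factor Y, together with the cell cycle homology letters TTTGAA (chr9:70421505-70421804, minus strand). Both strands were searched.
Slc16a3: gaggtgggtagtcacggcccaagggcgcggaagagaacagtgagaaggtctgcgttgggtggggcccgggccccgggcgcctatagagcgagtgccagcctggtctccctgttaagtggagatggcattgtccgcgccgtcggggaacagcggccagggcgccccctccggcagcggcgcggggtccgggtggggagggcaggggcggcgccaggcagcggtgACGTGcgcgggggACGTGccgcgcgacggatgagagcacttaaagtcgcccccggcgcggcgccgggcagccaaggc
Bnip3: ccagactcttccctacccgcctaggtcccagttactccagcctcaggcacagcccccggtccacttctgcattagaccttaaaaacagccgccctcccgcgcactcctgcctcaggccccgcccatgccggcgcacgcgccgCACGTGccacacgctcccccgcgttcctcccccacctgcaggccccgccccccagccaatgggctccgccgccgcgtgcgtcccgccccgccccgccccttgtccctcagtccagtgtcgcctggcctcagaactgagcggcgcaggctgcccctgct
Ccnb2: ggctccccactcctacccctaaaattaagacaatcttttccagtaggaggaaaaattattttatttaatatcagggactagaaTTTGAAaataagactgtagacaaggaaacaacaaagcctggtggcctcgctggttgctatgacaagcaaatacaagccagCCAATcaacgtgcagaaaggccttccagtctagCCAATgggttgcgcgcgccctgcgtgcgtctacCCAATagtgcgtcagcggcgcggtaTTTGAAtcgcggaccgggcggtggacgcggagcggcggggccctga
Slc16a3 held 2 separate ACGTG matches. The 2 matches of Bnip3 were the overlapping readings of 1 palindrome on its 2 strands. Among 32851 mouse promoters of the same length, 19.6% held ACGTG at least once and 8.21% held 2 or more matches. Ccnb2 held 3 CCAAT and 2 TTTGAA matches, and 3 or more CCAAT were in 3.37% of all promoters. The other core searched, GCGTG, was in 32.4% of all promoters, including that of Bnip3 with 3 matches. ACGTG was not particular to the genes of the hypoxia list: Ccnb2 held 1 match, not marked in its sequence, together with 1 GCGTG, and Cdk1 held 1, while the called gene Pla2g7 held 0 ACGTG. Of 12 genes searched, 7 had an entry in the table. A match describes letters only.

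The libraries held 46252146 to 74545930 UMIs, and cycling Kupffer cells were deep, with a median of 8691 UMIs against 3148.5 in resting cells. The number of members per mouse ran from 26 to 55 in the controls and from 11 to 151 in the anemic pups. A single anemic library, anemia 2, held 151 members, 28.8% of all. Anemia 2 and anemia 3 stood apart in the genes used to choose the cells: in members, Clec4f, a lectin of Kupffer cells, was at 279 and 817 CPM (the gene's UMIs per 1000000 UMIs of the members in that mouse), against 1641 to 2200 in the other anemic libraries and 1898 to 2489 in the controls. The shares, the called genes and the gene lists are therefore also given without anemia 2. Leaving out both libraries is given for the shares, the number of calls and some genes. Members were not removed as doublets, but Scrublet called 26 of the 525, and results without those calls are among the alternatives. Of all kept cells, 9664 had a barcode that was also in another library, and 24 members did. Xist and Y-linked genes were read per library, and 4 control and 2 anemic pups were female. With Y-linked expression as a covariate, 6 of the 8 genes called below were still called, and Pla2g7 (adjusted p = 0.0881, edgeR) and Gm26887 (adjusted p = 0.0572, edgeR) were not.

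Marker genes that the choice did not use were read in all members pooled. Their shares in cells of other types were not computed. Cd5l, a secreted scavenger protein of tissue macrophages, was detected in 95.4% of members, Marco, a scavenger receptor, in 93.0%, and Timd4, a phosphatidylserine receptor of embryo-derived Kupffer cells, in 82.7%. The corresponding shares of resting cells, which held fewer UMIs, were 92.7%, 83.3% and 66.2%. Cdk1, the kinase that drives entry into mitosis, was detected in 55.2% of members against 6.05% of resting cells. Birc5, a subunit of the chromosomal passenger complex, was in 53.5% against 3.23%, and Pcna, the sliding clamp of DNA polymerase, was in 71.6% against 27.1%. Kupffer identity genes lay both ways in members of anemia 2. There Timd4, Cd5l, Marco, Nr1h3, Spic and Cd38 were at their highest CPM of all libraries. Id3, Zeb2, Slc40a1, Axl, Fcna and Vcam1 were at their lowest, with Fcna at 269 CPM against a median of 1031 CPM over all mice.

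Cell cycle genes stood at higher levels in cells with more Top2a and Mki67 UMIs, which is a description because those UMIs chose the cells. Top2a encodes topoisomerase II alpha, which untangles sister chromatids, and Mki67 encodes a protein that coats mitotic chromosomes. The 42 genes of the S phase list summed to 679 CPM in cells with 0 UMIs and to 992 CPM with 1 UMI, just outside the rule. They summed to 1656 CPM with 2 UMIs, just inside it, to 3252 CPM with 4 to 9 and to 2883 CPM with 10 or more. The 50 genes of the G2 and M phase list went from 795 CPM at 0 UMIs and 1252 CPM at 1 UMI to 2166 CPM at 2 UMIs and 7033 CPM at 10 or more. The 20 genes of the Kupffer identity list stayed between 15818 and 17222 CPM up to 9 UMIs and stood at 13288 CPM in the 94 cells with 10 or more.

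**Figure D1:**
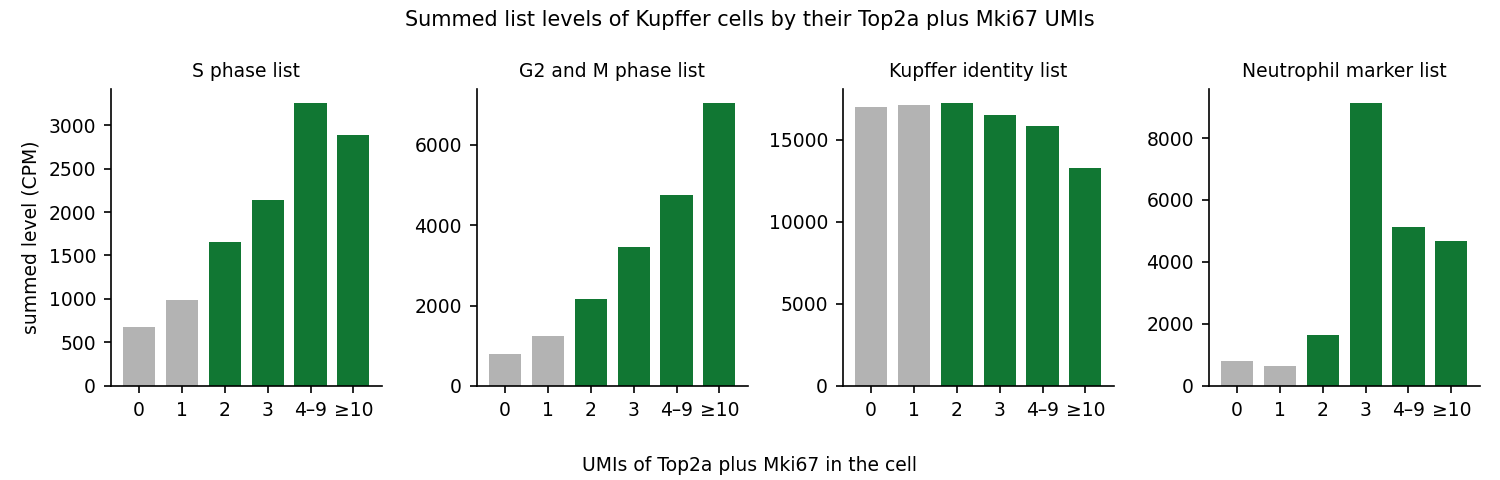
Summed level in CPM (y axis) of 4 gene lists in Kupffer cells grouped by their Top2a plus Mki67 UMIs (x axis), with all mice pooled; gray bars are cells outside the rule and green bars are members. The G2 and M phase list rises from 795 to 7033 CPM, the Kupffer identity list ends at 13288 CPM, and the neutrophil marker list is highest, at 9125 CPM, in cells with 3 UMIs.

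RNA of other cells was present in members and was uneven between mice. The 9 neutrophil markers, all 9 of which were tested, summed to 54.7 to 13340 CPM in control members and to 68.3 to 42008 CPM in anemic members, with the highest value in anemia 5, which had 11 members. S100a8, an abundant calcium-binding protein of neutrophils, was at 5.05 to 3905 CPM in the controls (median 18.3) and at 26.6 to 15215 CPM in the anemic pups (median 3291), and the groups overlapped. Mpo, the peroxidase of neutrophil precursors, lay the other way, at 0 to 233 CPM in the controls (median 121) and 0 to 24.6 CPM in the anemic pups (median 0.269), with 0 in 2 control and 3 anemic libraries, and it did not pass the test (log2 fold change -4.63, adjusted p = 0.207, edgeR). The 10 monocyte markers summed to 364 to 1538 CPM in the controls and 413 to 2573 CPM in the anemic pups. The 10 hepatocyte markers summed to 1551 to 2640 CPM and 218 to 1831 CPM, and 4 of 6 anemic libraries lay below all controls. The 10 erythroid markers present in the data, of 11 listed, summed to at most 52.8 CPM in control members (median 23.1). In anemic members they summed to 8.25 to 438 CPM (median 144), with 3 anemic libraries above all controls. Hbb-bs, an adult globin that the choice of cells limited, had medians of 313 and 1154 CPM. The 7 stellate cell markers summed to 45.5 to 240 CPM in control and 36.9 to 2045 CPM in anemic members. At least 2 UMIs of T and NK cell markers were held by 12.1% of control and 29.8% of anemic members. For endothelial markers these shares were 11.7% and 29.1%. In anemia 2 alone they were 43.7% for T and NK cell markers and 40.4% for endothelial markers. Of the 525 members, 290 held 2 or more UMIs of at least 1 of 8 other-cell lists, 43.8% of the control and 64.9% of the anemic members. These shares pool cells, and anemia 2 gave 151 of the 285 anemic members. Per mouse they ran from 38.2% to 51.5% in the controls and from 41.9% to 80.6% in the anemic pups, with overlap. Anemic members were also deeper, with a pooled median of 10690 UMIs against 6964, and a fixed number of UMIs does not allow for depth. The part of this RNA in the results was not tested beyond the alternatives that leave such cells out. These kept 235 members, or 450 when only cells with 10 or more such UMIs were left out. The 8 lists do not include the monocyte, hepatocyte and dendritic markers, so neither set was cleared of such RNA. At an unadjusted p under 0.05 (edgeR), 8 of 8 tested hepatocyte markers were still lower in anemia in the first set and 8 of 9 in the second. Positive values were seen for 1 of 1 and 3 of 4 tested monocyte markers.

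The share of Kupffer cells that were cycling did not differ detectably between the groups. In the controls it was lowest at 2.42%, had a median of 4.19% and was highest at 4.94% (mean 3.90% ± 0.972, SD, n = 6). In the anemic pups it was lowest at 1.43%, had a median of 4.62% and was highest at 20.8% (mean 6.67% ± 7.07, SD, n = 6). The groups overlapped, with 2 anemic libraries above all controls and 1 below all controls. The mean difference of 2.77 percentage points gave p = 0.394 in the exact two-sided Mann-Whitney test (0.591 after Benjamini-Hochberg adjustment over 3 comparisons).

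Anemia 2 alone set the higher anemic mean. Its 151 cycling cells among 725 Kupffer cells gave 20.8% (Wilson 95% interval 18.0% to 23.9%), and the next highest anemic library stood at 5.24% (3.71% to 7.34%). The lowest, anemia 5, had 1.43% (0.802% to 2.55%). These intervals cover counting error only. Without anemia 2 the anemic mean was 3.84% and the difference was -0.0638 percentage points (p = 0.662, exact Mann-Whitney test). Kupffer cells of anemia 2 also held more UMIs, with a median of 6933 against 2168 to 4358 in the other 11 libraries. The Top2a and Mki67 UMIs of each Kupffer cell were then thinned to a depth of 2000 UMIs, and shallower cells were left out (2305 control and 1628 anemic cells). The cycling share after this was 2.25% in the controls and 2.76% in the anemic pups (p = 0.818, exact Mann-Whitney test). The Kupffer cells themselves were still chosen at full depth, so thinning does not correct for depth in that choice. Anemia 2 was still highest after thinning, at 6.43%, against 1.01% to 3.83% in the others.

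**Figure D2:**
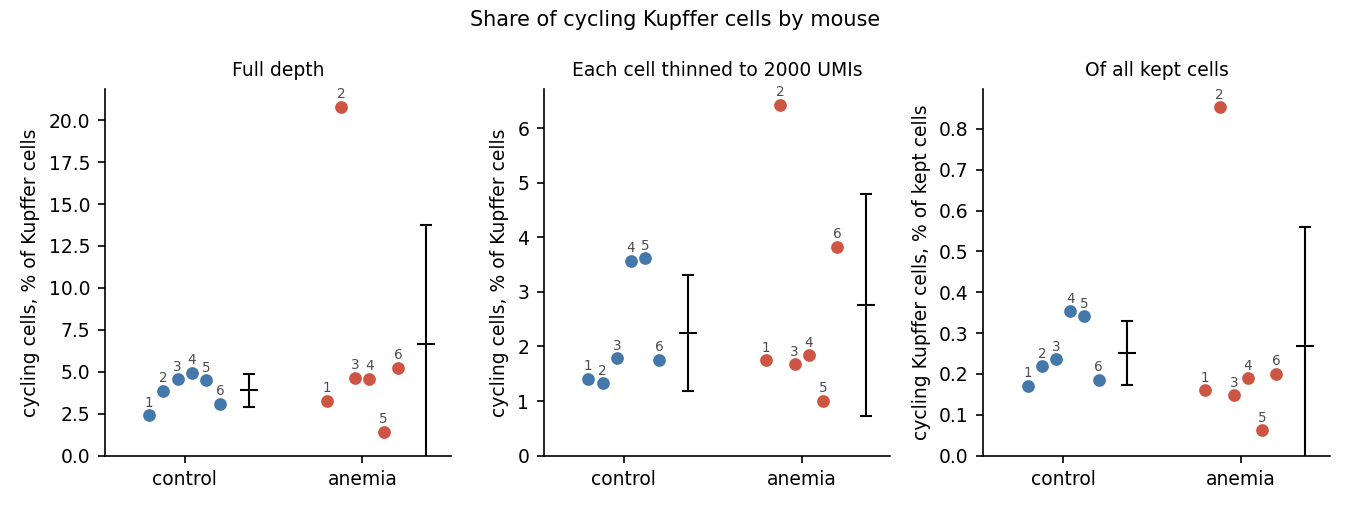
Each point is 1 mouse with its replicate number, and black marks give the mean ± SD of 6 mice (below 0 where the bar meets the axis). The left panel shows cycling cells as a percentage of Kupffer cells. The middle panel shows the same after the Top2a and Mki67 UMIs of each cell were thinned to a depth of 2000 UMIs, with Kupffer cells chosen at full depth. The right panel shows cycling Kupffer cells as a percentage of all kept cells. Anemia 2 is at 20.8%, 6.43% and 0.854%.

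Cells of a type that should not divide give a background for these shares. Mature neutrophils, taken as cells with at least 2 Retnlg UMIs and 0 of Elane, Mpo and Cd79a, are not expected to divide, and 2.82% of 6458 such cells held 2 or more Top2a and Mki67 UMIs at a median depth of 1693 UMIs. Naive B cells, the background chosen first, gave 20.0% of 5587 cells and were set aside after that value was seen. The share among Kupffer cells was 5.00% at a median of 3623.5 UMIs. By group, the neutrophil share was 2.14% in the controls and 3.34% in the anemic pups, and the thinned Kupffer shares, as means of mice, were 2.25% and 2.76%. The neutrophils were not thinned, and the difference from their shares was not tested. The part of free RNA, of doublets and of dividing precursors in the neutrophil value was not tested.

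Cycling Kupffer cells as a percentage of all kept cells gave no detected difference either. The controls ranged from 0.171% to 0.354% with a median of 0.228%, and the anemic pups from 0.0620% to 0.854% with a median of 0.175%. The groups overlapped, and 3 anemic libraries were below all controls while 1 was above them (p = 0.240, exact two-sided Mann-Whitney test, adjusted p = 0.591). Without anemia 2, the anemic mean was 0.152% against 0.251%, a difference of -0.0991 percentage points (exact p = 0.0519). As a percentage of kept cells with under 10% globin UMIs, the means were 0.330% in the anemic pups and 0.271% in the controls (p = 0.818, exact Mann-Whitney test). Kupffer cells as a whole were 5.20% to 7.57% of kept cells in the controls and 3.17% to 4.93% in the anemic pups, and these ranges did not overlap. They depend on Clec4f and Vsig4, which were low in anemia 2 and anemia 3: these libraries held 1185 and 378 macrophages with the C1q genes but 0 UMIs of both, beside 725 and 667 Kupffer cells, against 49 to 97 such macrophages in each control. The ranges also depend on the other kept cells, which include erythroid cells, a type that the paper found enriched in anemic liver. The share of Kupffer cells among kept cells with under 10% globin UMIs was not computed.

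Levels of the proliferation genes over all Kupffer cells, which need no threshold per cell, gave the same comparison. Top2a plus Mki67 ranged from 55.6 to 101 CPM in the controls (median 66.3) and from 47.7 to 180 CPM in the anemic pups (median 69.0). The groups overlapped (p = 0.937, exact two-sided Mann-Whitney test), and anemia 2 was again the highest. Without it, the difference was -4.06 CPM (exact p = 0.792).

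Macrophages with the C1q genes but 0 UMIs of Clec4f and Vsig4 served as the nearest comparison. Their cycling share was 5.59% ± 2.52 (SD, n = 6) in the controls and 4.98% ± 2.98 (SD, n = 6) in the anemic pups, from 49 to 1185 such cells per mouse, the most in anemia 2. In anemia 5 it was 0 of 77 cells, which allows a share of up to 3.90% taking 3 counts as the limit, or 4.75% by the Wilson interval. Kupffer cells had the lower share in 7 of 12 mice, and the mean paired difference was -3.8e-05 percentage points (SD 4.94, p = 1.00, exact sign-flip permutation test). By group, the mean paired difference was -1.69 percentage points in the controls and 1.69 in the anemic pups (p = 0.310 between the groups, exact Mann-Whitney test). Over all mice but anemia 2, it was -1.23 percentage points (p = 0.153, exact sign-flip permutation test).

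Gene expression of cycling Kupffer cells was compared on UMIs summed per mouse with edgeR's quasi-likelihood test. Of 7749 genes tested, 7 were higher (0.0903%) and 1 was lower (0.0129%) in anemia at an adjusted p under 0.05, and 592 had an unadjusted p under 0.05. In simulated counts of the same depth, 78 of 100 genes with a log2 change of 2 and 30 of 100 with a log2 change of 1 were recovered, so that smaller changes would mostly be missed. Resting Kupffer cells of the same mice, with more UMIs per mouse, gave 97 higher (0.765%) and 76 lower genes (0.599%) of 12685. Of the 8 genes called in cycling cells, 5 were also called in resting cells, and these comparisons share their mice.

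Slc16a3 and Bnip3, genes of the response to low oxygen, rose in cycling Kupffer cells. Slc16a3 (ENSMUSG00000025161, chr11:120948480-120960868), whose promoter is printed above, encodes the monocarboxylate transporter 4 that exports lactate. Its level in cycling cells ran from 4.18 to 18.9 CPM in the controls (median 13.6) and from 24.7 to 89.9 CPM in the anemic pups (median 57.9). The groups did not overlap, as in 0.168% of all genes tested in that direction. The log2 fold change was 2.34 ± 0.36 (SE, adjusted p = 0.0213, edgeR), from 23 control and 231 anemic UMIs.

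Bnip3 (ENSMUSG00000078566, chr7:138890836-138909519) encodes a protein of the outer mitochondrial membrane that promotes mitophagy. It ran from 5.21 to 26.4 CPM in the controls (median 15.1) and from 24.7 to 96.7 CPM in the anemic pups (median 68.6). The ranges touched only between control 4 and anemia 5. The log2 fold change was 2.18 ± 0.37 (SE, adjusted p = 0.0330, edgeR). In resting cells the log2 fold changes of Slc16a3 and Bnip3 were 1.67 (adjusted p = 0.00187) and 1.86 (adjusted p = 0.000160).

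Fabp4 and Pla2g7 were also called, while the list of sterol and lipid handling genes, which holds neither gene, had 0 called of 15 tested in edgeR. Fabp4 (chr3:10204088-10208576), a fatty acid-binding protein of adipocytes and macrophages, ran from 31.5 to 69.5 CPM in the controls (median 44.3) and from 57.7 to 404 CPM in the anemic pups (median 168). The groups overlapped through anemia 5, and the log2 fold change was 2.08 ± 0.37 (SE, adjusted p = 0.0330, edgeR). Pla2g7 (chr17:43568098-43612201), the secreted phospholipase that inactivates platelet-activating factor, ran from 65.7 to 91.1 CPM (median 76.1) and from 100 to 264 CPM (median 170). Its groups did not overlap, and the log2 fold change was 1.16 ± 0.21 (SE, adjusted p = 0.0330, edgeR). In resting cells Fabp4 and Pla2g7 rose by log2 fold changes of 1.59 (adjusted p = 1.7e-05) and 1.11 (adjusted p = 0.000670).

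Gas7 and Svbp were called in cycling and not in resting cells, and the difference between the states did not pass the test for either (adjusted p = 1.00 for Gas7, edgeR). Gas7 (chr11:67455437-67688990), a membrane-shaping protein that binds actin, ran from 2.60 to 16.7 CPM in the controls (median 9.89) and from 11.0 to 75.2 CPM in the anemic pups (median 53.9). The groups overlapped through anemia 4, and the log2 fold change was 2.56 ± 0.45 (SE, adjusted p = 0.0330, edgeR) in cycling cells and 1.82 ± 0.47 (SE, adjusted p = 0.0759, edgeR) in resting cells. Svbp (chr4:119195306-119201298), the partner of the vasohibins that remove tyrosine from tubulin, ran from 9.03 to 16.8 CPM (median 13.9) and from 28.1 to 55.9 CPM (median 35.5), without overlap. Its log2 fold change was 1.61 ± 0.28 (SE, adjusted p = 0.0330, edgeR) in cycling cells and 0.52 (adjusted p = 0.115) in resting cells, and the difference between the states had an adjusted p of 0.683. Without members holding 10 or more other-cell UMIs, the log2 fold change of Svbp in cycling cells was 1.49 (adjusted p = 0.120, edgeR).

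The other calls were long noncoding RNAs. Gm10076 (chr14:105681828-105682211) ran from 107 to 139 CPM in the controls (median 125) and from 181 to 336 CPM in the anemic pups (median 263), without overlap, with a log2 fold change of 1.11 ± 0.17 (SE, adjusted p = 0.0213, edgeR). Its reads are uncertain, because 294 of the 355 stretches of 30 bases in its transcript (82.8%) also occur in Rpl41, a ribosomal protein gene. Rpl41 itself was at 2315 to 2980 CPM in the controls and 2433 to 3917 CPM in the anemic pups, and was not tested because ribosomal protein genes were left out. Gm26887 (chr8:84192774-84197667) ran from 21.6 to 65.1 CPM in the controls (median 43.1) and from 6.14 to 19.0 CPM in the anemic pups (median 11.3). Its groups did not overlap, as in 0.387% of the genes in that direction, and it was the gene that fell (log2 fold change -1.87 ± 0.34, SE, adjusted p = 0.0416, edgeR). Gm26887 too was not called in resting cells (log2 fold change -0.87, adjusted p = 0.183, edgeR).

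**Figure D3:**
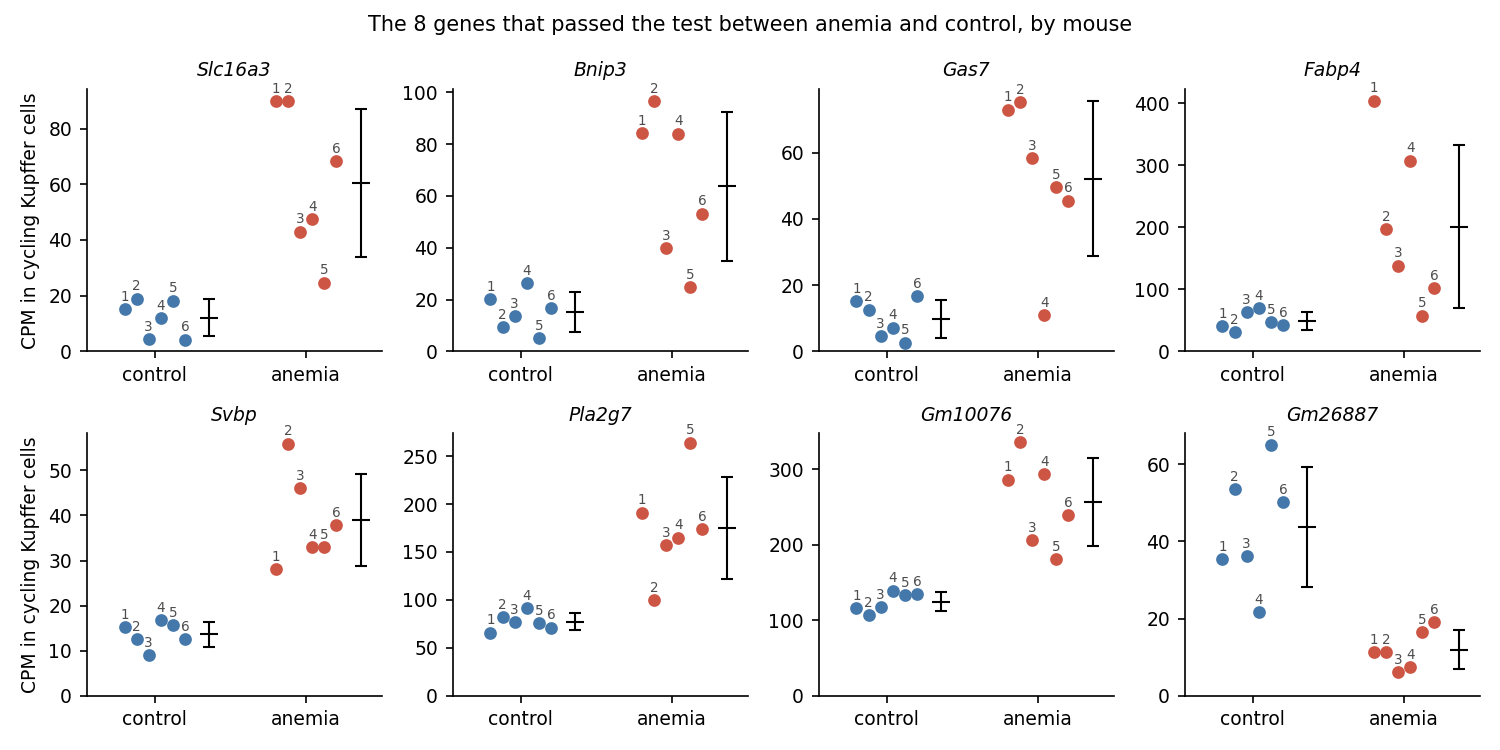
CPM in cycling Kupffer cells (y axis) of the 8 genes that passed the test, with 1 point per mouse, its replicate number, and the mean ± SD of 6 mice in black. The groups are apart for Slc16a3, Svbp, Pla2g7, Gm10076 and Gm26887 and overlap in the other 3.

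The next 2 genes by p-value did not pass. Hcar2, a receptor for niacin and ketone bodies, was at 33.4 to 78.7 CPM in the controls (median 51.1) and at 0 to 22.5 CPM in the anemic pups (median 14.9), without overlap (adjusted p = 0.0746, edgeR). Kansl1l, related to a subunit of a histone acetylation complex, was at 108 to 441 CPM (median 256) and 46.2 to 124 CPM (median 99.5), with overlap (adjusted p = 0.0845, edgeR).

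Without anemia 2, all 8 called genes kept their direction and 2 of them kept an adjusted p under 0.05, Gm10076 (0.0267) and Pla2g7 (0.00851). The log2 fold changes of Slc16a3 and Bnip3 were then 2.13 (adjusted p = 0.0735) and 1.96 (adjusted p = 0.121). Over 25 alternatives, Gm10076 kept its call in 18 and Pla2g7 in 11. Without members holding 2 or more other-cell UMIs, the log2 fold change of Pla2g7 was 0.85 (adjusted p = 0.487, edgeR). The number of calls rested on single mice among the controls too, since leaving out control 1, 2, 3, 5 or 6 left 0 calls in edgeR, with 507 to 600 genes at an unadjusted p under 0.05.

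The hypoxia and glycolysis list had higher values in anemic cycling Kupffer cells, but few of its genes passed the test. Of its 30 genes, 27 were tested, 2 were called higher (against 0.0903% of all genes) and none lower, all 27 had a positive log2 fold change and the median was 0.66, against 0.01 over all genes tested. An unadjusted p under 0.05 was reached by 18. In resting cells all 30 were tested, 20 were called higher (against 0.765% of all genes) and none lower, and the median was 0.86 against 0.03 over all genes. Without anemia 2, 25 genes were tested in cycling cells, none was called, 12 had an unadjusted p under 0.05, 23 had a positive value and the median was 0.49. As a summed level, the list ran from 5226 to 6785 CPM in control members and from 5806 to 12690 CPM in anemic members, 5 of 6 above all controls. In anemia 2 and anemia 3 it was 12690 and 9797 CPM, against 5806 to 7802 CPM in the other anemic libraries. In resting cells it ran from 5017 to 5683 and from 7220 to 14409 CPM, without overlap, and 19 of the 30 genes did not overlap between the groups, against 0.938% of all genes tested there. When members with 2 or more UMIs of an other-cell list were left out, 5 of 20 tested genes of the list were called higher, against 0.190% of the 4218 genes of that fit, and the median was 0.76. When only those with 10 or more such UMIs were left out, the median was 0.71 over 27 genes.

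Several enzymes and effectors of this list are given as examples chosen after their values were seen. Fam162a, a mitochondrial protein induced by low oxygen, was at 34.6 to 93.5 CPM in control and 107 to 342 CPM in anemic members, without overlap (log2 fold change 1.42, adjusted p = 0.129, edgeR). Tpi1, the glycolytic triose isomerase, was at 146 to 224 and 214 to 459 CPM (adjusted p = 0.0865, edgeR), and Pgk1, which makes the first ATP of glycolysis, was at 198 to 276 and 214 to 780 CPM (adjusted p = 0.154, edgeR). Ldha, which turns pyruvate into lactate, was at 416 to 555 CPM in the controls and 421 to 1009 CPM in the anemic pups. In resting cells Fam162a, Tpi1, Pgk1 and Ldha were called, with log2 fold changes of 1.44, 1.00, 1.60 and 0.73. Gapdh and Aldoa, the most abundant genes of the list, were at 1713 to 2505 and 406 to 631 CPM in the controls and at 2146 to 3656 and 379 to 1129 CPM in the anemic pups, with overlap. Their log2 fold changes in cycling cells were 0.39 and 0.65, and 0.09 and 0.26 without anemia 2 and anemia 3. Those of Slc16a3 and Bnip3 were 2.21 and 2.08 without both libraries.

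Vegfa, the vascular growth factor, passed the test in resting cells and not in cycling cells. In resting cells it ran from 3.67 to 9.67 CPM in the controls and from 26.1 to 52.0 CPM in the anemic pups (log2 fold change 2.74, adjusted p = 2.3e-05, edgeR). In cycling cells it ran from 2.60 to 26.4 CPM and from 0 to 31.2 CPM, with overlap (log2 fold change 0.98, adjusted p = 0.683, edgeR, from 22 and 82 UMIs). The difference between the states was -1.67 on the log2 scale and did not pass the test (adjusted p = 1.00, edgeR). Without members holding 10 or more other-cell UMIs, the log2 fold change of Vegfa in cycling cells was 2.16 (adjusted p = 0.150, edgeR).

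**Figure D4:**
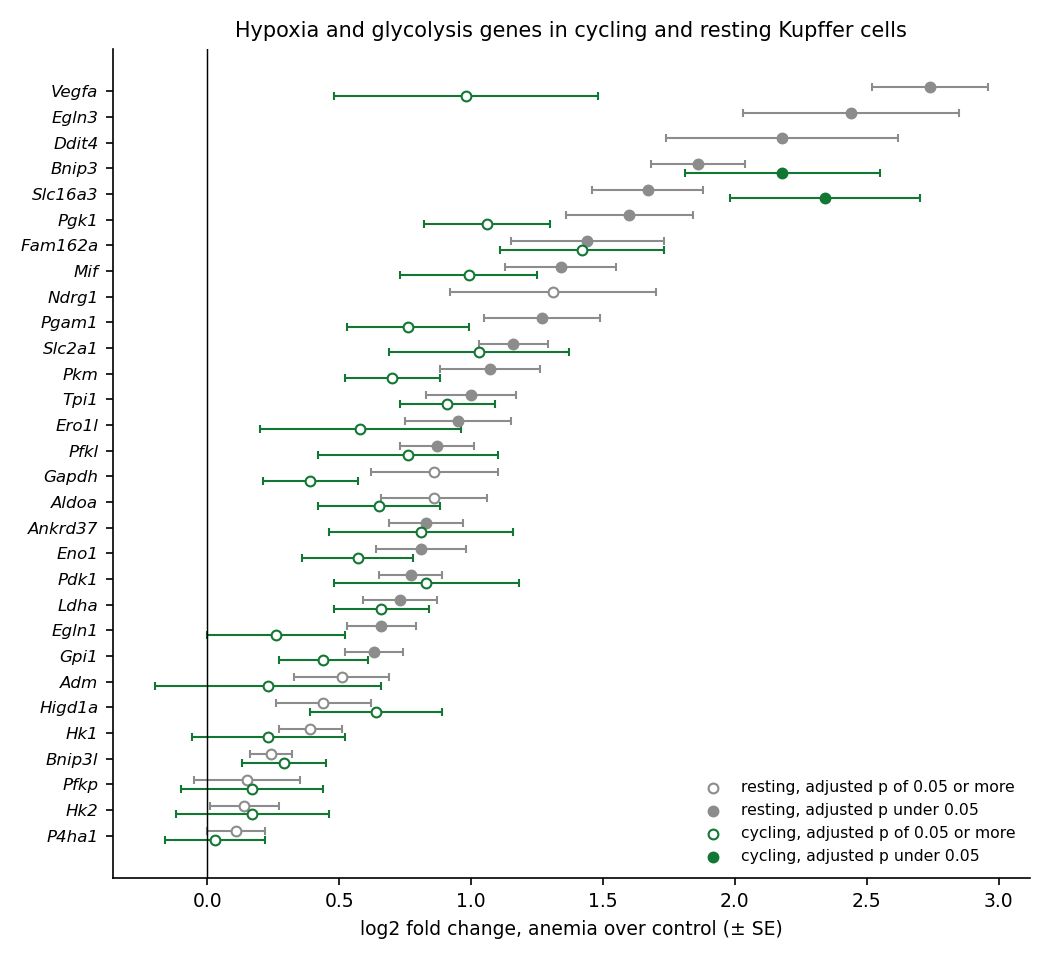
log2 fold change of anemia over control ± SE (x axis) for the genes of the hypoxia and glycolysis list (y axis) in resting (gray) and cycling (green) Kupffer cells of the same mice; filled points passed the test. In cycling cells 2 of 27 points are filled, and in resting cells 20 of 30.

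Cell cycle genes within the cycling cells did not pass the test in either direction. Of the S phase list 38 genes were tested, 30 had a positive value and the median log2 fold change was 0.12. Of the G2 and M phase list 47 were tested, 18 were positive and the median was -0.05. Without anemia 2 the medians were 0.11 for the S phase list and 0.03 for the G2 and M phase list. They moved apart when members with other-cell UMIs were left out, still with 0 calls in edgeR: with 10 or more such UMIs left out the S phase median was 0.25, and the G2 and M phase median was -0.23, with 39 of 46 genes negative and 7 lower at an unadjusted p under 0.05. With 2 or more left out the medians were 0.40 over 22 genes and -0.21 over 36. In the fit with 10 or more left out, 588 of all 6994 genes had an unadjusted p under 0.05 in either direction. Members were chosen by a raw count of Top2a and Mki67 UMIs, and their pooled median depth was 6964 UMIs in the controls and 10690 in the anemic pups. The part of this depth in the G2 and M phase values was not tested. Pcna was at 192 to 297 CPM in the controls and 111 to 379 CPM in the anemic pups, and Pola1, a subunit of DNA polymerase alpha, at 90.9 to 199 and 108 to 231 CPM. Hmgb2, a chromatin protein of dividing cells, was at 718 to 1056 and 461 to 1270 CPM, and Ube2c, which tags mitotic cyclins for destruction, at 196 to 370 and 144 to 503 CPM. The groups overlapped for all 4 of these genes, which are the most abundant of the 2 lists.

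The balance of the phases varied between single libraries. The S phase list summed to 1576 to 2854 CPM in control members and 1395 to 3228 CPM in anemic members, and the G2 and M phase list to 4111 to 5985 and 2703 to 8477 CPM. Anemia 3 was the lowest in both lists, and anemia 5, with 11 cells, was the highest in the G2 and M phase list. In anemia 2, Mcm5, a subunit of the replicative helicase, was detected in 68.2% of members, against 19.2% to 48.4% in the other libraries, at the highest depth per member of all libraries (median 12582 UMIs). Pcna (88.7%) and Cdk1 (66.2%) were also detected most often there, while Tyms (44.4%), Ccnb2 (35.8%) and Birc5 (53.0%) were not. The S phase list of anemia 2 was at 2837 CPM, below anemia 6 at 3228 CPM.

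Regulators of entry into the cycle did not pass either. All 15 genes of the G1 cyclin and CDK inhibitor list were tested and the median log2 fold change was 0.27 (0.31 over 12 genes without anemia 2). Cdkn1a, the p21 inhibitor, was at 60.0 to 126 CPM in the controls and 85.5 to 150 CPM in the anemic pups, and Cdk4, the kinase partner of D cyclins, at 76.7 to 110 and 27.6 to 110 CPM, both with overlap. Of the macrophage growth control list, which holds growth factor receptors and the factors that restrain macrophage division, 12 of 14 genes were tested and the median was -0.23 (-0.10 without anemia 2). Its summed level was 3276 to 3864 CPM in control and 2528 to 3520 CPM in anemic members, with 4 of 6 anemic libraries below all controls. Csf1r, the receptor of colony-stimulating factor 1, was at 748 to 1162 CPM and 487 to 872 CPM, and Klf2, a transcription factor linked to macrophage quiescence, at 434 to 925 and 251 to 516 CPM. Csf2rb, the shared receptor chain for granulocyte-macrophage colony-stimulating factor, interleukin 3 and interleukin 5, is named after its values were seen. It was at 85.8 to 163 CPM and 157 to 223 CPM (log2 fold change 0.79, adjusted p = 0.0880, edgeR), and was called higher in resting cells (0.46, adjusted p = 0.0378, edgeR). Csf2ra, the alpha chain of the granulocyte-macrophage colony-stimulating factor receptor, was called lower in resting cells (-0.49, adjusted p = 0.0115, edgeR) and had a log2 fold change of -0.32 in cycling cells, where it did not pass the test.

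Kupffer identity genes did not pass the test between anemic and control members. All 20 were tested, 12 had a positive value and the median was 0.07 (10 and 0.01 without anemia 2). At an unadjusted p under 0.05, 0 were higher and 3 were lower, Id1, Slc40a1 and Cfp, named after their values were seen. Slc40a1, the iron exporter ferroportin, was at 1216 to 1471 CPM in the controls and 785 to 1097 CPM in the anemic pups, without overlap (adjusted p = 0.624, edgeR). Cd5l was at 2278 to 3187 CPM in the controls and 2114 to 3246 CPM in the anemic pups. Marco was at 1852 to 2772 CPM and 1691 to 6464 CPM, with the highest value in anemia 2. Its log2 fold change was 0.57 in all mice and -0.08 without anemia 2 and anemia 3. Without members holding 10 or more other-cell UMIs, 13 of the 20 identity genes were positive and their median was 0.20. At an unadjusted p under 0.05, 3 were then higher and 1 lower. Without members holding 2 or more, the median of the identity genes was -0.01. Genes of heme and iron recycling gave 17 tested, none called, 3 lower at an unadjusted p under 0.05 and a median of -0.03 (-0.15 without anemia 2). When members with 2 or more other-cell UMIs were left out, 1 of 16 was called lower, against 0.0948% of the 4218 genes of that fit, and the median was -0.24. In all members, their summed level lay below all controls in 4 anemic libraries and above them in 2, in anemia 2 and anemia 3. Of the sums of 26904 and 24543 CPM in these libraries, Fth1 alone gave 16704 and 15090 CPM. Ftl1 was at 5824 and 5564 CPM there. Fth1 and Ftl1, the ferritin chains that store iron, were at 6488 to 9101 and 5701 to 8677 CPM in the controls and at 4799 to 16704 and 3365 to 5873 CPM in the anemic pups. The log2 fold change of Fth1 was 0.33 in all mice and -0.41 without anemia 2 and anemia 3.

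The lists of immune and metabolic function also gave 0 calls in cycling cells in edgeR. The 18 tested cytokine and chemokine genes had a median of -0.14, with 1 gene higher and 3 lower at an unadjusted p under 0.05. Without anemia 2 the median was -0.23 over 16 genes, 4 of them lower at an unadjusted p under 0.05. Their summed level was 6053 to 7880 CPM in the controls and 3633 to 6410 CPM in the anemic pups, and 5 of 6 anemic libraries were below all controls. Cxcl2, a neutrophil attractant and the most abundant of them, was at 2501 to 3990 CPM and 946 to 2658 CPM (adjusted p = 0.357, edgeR), and Nfkbia, the inhibitor of NF-kappaB, was at 600 to 1004 and 399 to 954 CPM. The 18 tested interferon response genes had a median of -0.10, and none had an unadjusted p under 0.05. Without anemia 2, 12 of 16 were negative, 2 were lower at an unadjusted p under 0.05 and the median was -0.29, and without members holding 2 or more other-cell UMIs it was 0.01.

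Of the MHC class II genes, 6 were tested and all 6 had negative values, with a median of -0.27 and none at an unadjusted p under 0.05. This direction did not hold in other sets of cells: without anemia 2, 4 of 6 were negative (median -0.14), without members holding 10 or more other-cell UMIs 3 of 6 were (0.02), and without those holding 2 or more, 5 of 6 were positive (0.54). Cd74, the invariant chain, was at 1127 to 3907 CPM in the controls and 391 to 3017 CPM in the anemic pups. The 15 tested sterol and lipid genes had a median of -0.13 with 1 higher at an unadjusted p under 0.05 (-0.07 over 13 genes without anemia 2), and Apoe, a lipoprotein component that macrophages secrete, was at 3025 to 4733 and 755 to 5469 CPM. The 18 tested lysosome and phagocytosis genes had a median of -0.02 with 1 lower at an unadjusted p under 0.05, and 9 of 18 were positive without anemia 2. Among these, Ctsb and Lgmn, proteases of the lysosome, were at 2111 to 2911 and 1421 to 1927 CPM in the controls and at 1917 to 3360 and 1558 to 2481 CPM in the anemic pups.

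Compared with resting cells of the same mouse, cycling cells held most Kupffer identity genes at slightly lower CPM. These values are a description with no test, because the cells were split by their own counts. Other-cell RNA, which counts in the total of each CPM, differed between the states too. At least 2 UMIs of an other-cell list were held by 55.2% of members and 26.9% of the shallower resting cells. The neutrophil markers summed to 814 CPM in cells with 0 Top2a and Mki67 UMIs and to 5117 CPM with 4 to 9. The part of this RNA in the lower values was not tested. Of the 20 identity genes, 19 had a median log2 ratio of cycling to resting cells below 0 and 5 were lower in all 12 mice, and the median over the genes was -0.31. Slc40a1 had a median of 1157 CPM in cycling and 1648 CPM in resting cells, and was lower in 12 of 12 mice. C6, a terminal complement component, was at 228 and 327 CPM, and Fcna, a ficolin that binds microbial sugars, at 1031 and 1372 CPM, both lower in 12 of 12 mice. Folr2, a folate receptor of resident macrophages, and Cfp, the complement factor properdin, were the others lower in 12 of 12 mice.

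**Figure D5:**
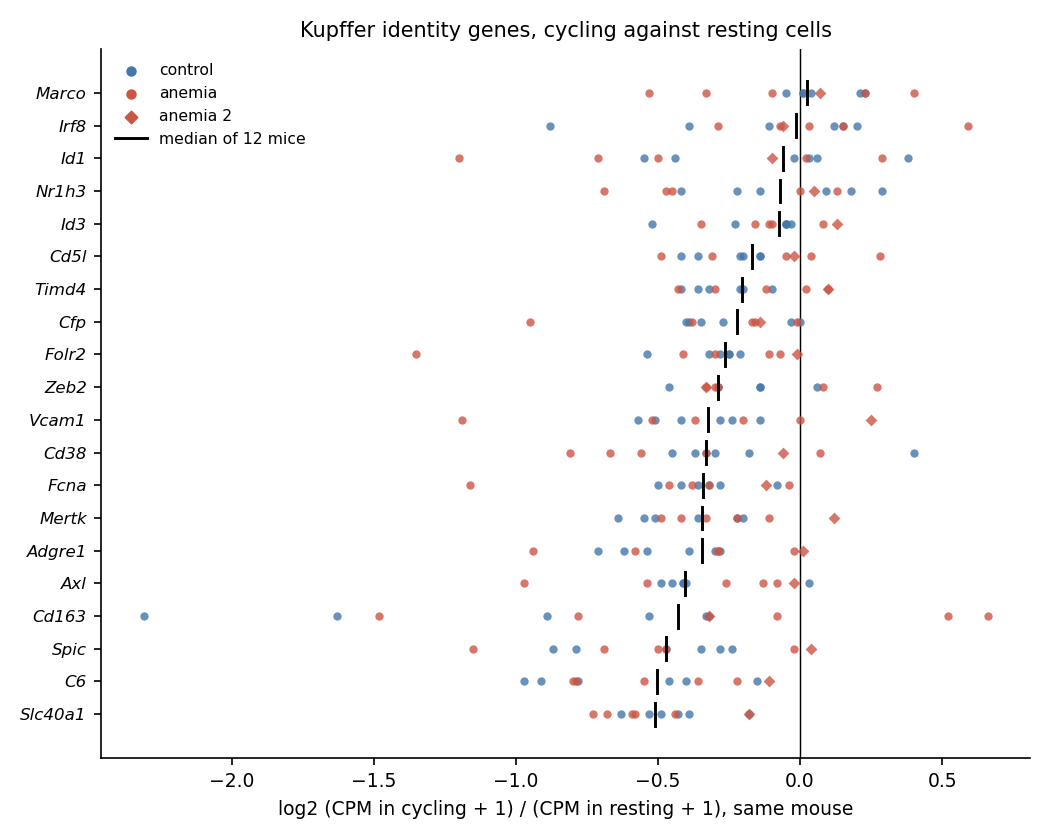
log2 ratio of the CPM in cycling to that in resting Kupffer cells of the same mouse, each with 1 CPM added (x axis), for 20 Kupffer identity genes (y axis); points are mice, diamonds are anemia 2 and black bars are medians of 12 mice. Medians run from -0.51 for Slc40a1 to 0.03 for Marco.

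The 5 most abundant genes of the S phase list and the 5 of the G2 and M phase list were higher in cycling cells in 12 of 12 mice. Rrm2, the ribonucleotide reductase subunit made in S phase, had a median of 159 CPM in cycling and 8.51 CPM in resting cells, and Ube2c one of 299 and 14.9 CPM. Cdk1 was at 147 and 16.3 CPM, and Ccnb2, the B-type cyclin whose promoter is printed above, at 113 and 12.5 CPM. Cdk1 and Ccnb2, named after their values were seen, were also higher in 12 of 12 mice. The G1 genes were mixed: Cdk4 was higher in cycling cells in 11 of 12 mice, and Ccnd1, the D-type cyclin, was lower in 10 of 12. Csf1r and Maf, the latter a transcription factor that restrains macrophage division, were lower in cycling cells in 12 of 12 mice, with medians of 846 and 1171 CPM for Csf1r and 358 and 491 CPM for Maf.

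Whether the effect of anemia differed between cycling and resting cells was tested with mouse as a factor. Of 7737 genes, 1 passed (0.0129%), and 361 had an unadjusted p under 0.05. The noncoding Gm43305 (chr14:54292443-54297456) was at 54.7 to 167 CPM in control and 16.5 to 62.2 CPM in anemic cycling cells, and at 7.83 to 19.1 and 12.4 to 29.6 CPM in resting cells. The difference of the effects was -2.14 ± 0.33 on the log2 scale (SE, adjusted p = 0.0214, edgeR), and no gene passed when control 1, 3, 4 or 6 or anemia 2, 3 or 6 was left out. Its log2 fold change in cycling cells was -1.33 in all members and -0.44 (adjusted p = 0.890, edgeR) without members holding 2 or more other-cell UMIs, and it was -1.30 (adjusted p = 0.238, edgeR) without those holding 10 or more. Its reads are uncertain too, since 820 of its 4996 stretches of 30 bases (16.4%) also occur in Gm42031. The next 4 genes, Arrdc3, Dcn, Slc22a23 and Reln, did not pass (adjusted p = 0.683 each, edgeR), and Dcn, a matrix proteoglycan of stellate cells, was at 627 CPM in anemia 5 against 6.14 to 171 CPM in the other anemic libraries.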

How the data were processed

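Single-cell RNA-seq of dissociated liver was made from 12 pups. The authors deposited raw UMI counts per gene and barcode from Cell Ranger 7.0.0 (mm10), 1 matrix per mouse, with no normalization. Per the labels, each library is 1 mouse.

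Barcodes passed if they held between 500 and 50000 UMIs, of which mitochondrial genes gave no more than 20% (202557 of 207537). The members and gene lists were chosen with earlier results of these data known. UMIs of members were summed per mouse (121264 to 1860721 UMIs) and tested with edgeR 4.0.16 (quasi-likelihood, TMM factors, R 4.3.3) over genes that averaged 5 or more UMIs, without mitochondrial and ribosomal protein genes, and a call was a Benjamini-Hochberg adjusted p under 0.05. The CPM printed are per 1000000 UMIs of the members, without TMM factors. The interaction fit held mouse, state, and state by group. The scripts were tested on simulated data. Shares were compared with exact Mann-Whitney tests (scipy 1.17.1). Doublets were called within each library with Scrublet in scanpy 1.11.5 (0.778% to 5.40% of cells, 11.5% to 17.0% expected) and kept. Alternatives were DESeq2 1.42.0, voom with quality weights (limma 3.58.1), no TMM factors, other filters on genes and cells, a replicate block, Y-linked expression as a covariate, and leaving out each mouse. Added after the data were seen were the neutrophil background, leaving out cells with 10 or more UMIs of an other-cell list, and leaving out anemia 2 and anemia 3 together. Gene coordinates are those of GENCODE M21 (GRCm38), matched by gene identifier.

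Genes named were the 10 with the lowest p because under 10 were called, the called genes of the lists, the 2 most abundant genes of each list that is not a marker list, the 5 with the lowest interaction p, and, between states, the 5 most abundant genes of each cell cycle list and the Kupffer identity genes. Exceptions were named after their values were seen. Where this is not said beside the gene, they are S100a8, Mpo, Rpl41 and Vegfa. Between the states, Cdk1, Ccnb2, Birc5, Tyms, Mcm5, Csf1r and Maf are such exceptions. Csf2ra was named because it was called in resting cells. The replicate numbers did not pair the mice: the correlation of same-numbered mice ran from -0.15 to 0.05, and 0 of 6 pairs was over 0.1. Libraries of a group differed by more than sampling noise (chi-square per degree of freedom at least 2.10).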

Additional observations from a re-analysis of the deposited data

Results flagged for a closer look

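Of 108 groups of 6 mice checked for 1 value far from the other 5 (gap over range above 0.625), 6 held one, and chance gives about 1 in 20. In anemia 2, cycling cells were 20.8% of Kupffer cells (next 5.24%) and 0.854% of all kept cells (next 0.201%). Kupffer cells of that library held a median of 6933 UMIs, and its Clec4f level was 279 CPM. The part of depth and of the low Clec4f level in its share was not tested beyond thinning of the Top2a and Mki67 UMIs, after which it was 6.43%. That thinning left the choice of Kupffer cells at full depth. The other 4 values were Cdk4 at 110 CPM in control 4, Ftl1 at 3365 CPM in anemia 5 (lowest, next 5286), Dcn at 627 CPM in anemia 5 (next 171) and Reln at 37.8 CPM in control 2 (next 7.19).

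Between cycling and resting cells, the effect of anemia on Gm43305 differed by -2.14 on the log2 scale (adjusted p = 0.0214, edgeR). Without members holding 2 or more other-cell UMIs, its log2 fold change in cycling cells was -0.44, and without those holding 10 or more it was -1.30, against -1.33 in all members.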

How the results depend on the processing

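The count of 8 genes called in cycling Kupffer cells was 22 with DESeq2, 3 with voom, 15 without a filter on low counts, 13 without cells holding 10 or more UMIs of an other-cell list, 2 without anemia 2 and anemia 3, and 1 with a threshold of 4 UMIs of Top2a and Mki67. With the replicate block it was 1, which was none of the 8 genes, and since the numbers did not pair the mice this says nothing about the size of an effect. Without cells holding 2 or more other-cell UMIs it was 12, and of the 8 genes 5 were tested and 3 of them were called. Those not called were Pla2g7 (log2 fold change 0.85, adjusted p = 0.487, edgeR) and Fabp4 (1.44, adjusted p = 0.0909, edgeR). Leaving out 1 mouse gave 0 to 11 calls (0 without control 1, 2, 3, 5 or 6, 2 without anemia 2, 3 without control 4 or without anemia 1, 3 or 4). Each of the 8 genes kept its direction in every one of the 25 alternatives in which it was tested. The balance of all calls, 7 higher and 1 lower in the main fit, was 13 higher and 9 lower with DESeq2. It was 9 and 6 without a filter on low counts, and 7 and 6 without cells holding 10 or more other-cell UMIs. The count of interaction calls was 0 to 2 when 1 mouse was left out.

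The difference in the share of Kupffer cells turned to -0.267 percentage points without anemia 2 and anemia 3, and leaving out 1 mouse gave -0.0638 to 3.82. The difference in the share of kept cells was -0.118 with a threshold of 1 UMI, -0.201 and -0.0526 without cells holding 2 or 10 other-cell UMIs, which removes most other cells from the denominator, and -0.0979 without both libraries, and leaving out 1 mouse gave -0.0991 to 0.0594. For Top2a plus Mki67 CPM it was -1.06 without both libraries and -4.06 to 22.4 leaving out 1 mouse. Against C1q macrophages lacking Kupffer markers the difference was -1.23 to 0.582. None of these passed p = 0.05, and with the replicate block the first 3 comparisons had exact p = 0.594, 0.938 and 0.688. The 6 mice per group and the 11 to 151 members per mouse limit what could be detected.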
